A study of Salmo salar with 16 samples.

Results

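Band 3 and Rh-type transporter genes of the red cell were followed in the spleen of 16 Atlantic salmon, 4 per diet. The set held 4 genes of the 79141 in each count table: LOC106606869 and LOC106606856, both named band 3 anion exchange protein-like, LOC106571195, named ammonium transporter Rh type A-like, and LOC100136438, named RhAG-like protein. They were taken by gene identifier, with earlier results of these data known. In the RefSeq table of a later salmon assembly the Rh genes carry the symbols rhag and rhd. Juvenile fish in fresh water were fed for 37 days a fishmeal control diet (FM), a diet with 40% soybean meal (SBM), or 1 of a pair of soybean meal diets that also held 5% of the yeast Cyberlindnera jadinii, either heat-inactivated (ICJ) or autolysed (ACJ). ICJ and ACJ fish therefore ate the same 40% of soybean meal as SBM fish. RNA came from whole spleen, 1 library per fish, and the fish of each diet came from duplicated tanks that the labels do not name, so diet and tank cannot be told apart. Single-fish values are named by diet and the number in the fish's label (FM1 to ACJ4).

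Band 3 exchanges chloride for bicarbonate across the red cell membrane, which lets blood carry carbon dioxide as bicarbonate, and it ties the membrane to the spectrin skeleton through ankyrin. Rh glycoproteins are channels for ammonia and are thought to pass carbon dioxide as well. In human red cells RhAG sits in 1 complex with band 3, and RHD carries the D blood group antigen. Fish red cells keep a nucleus and still hold messenger RNA, and the salmon spleen stores red cells, so a whole-spleen library holds their transcripts.

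All 4 genes were counted in every fish. Libraries held 5032593 to 9100203 counted fragments, and 28930 genes passed the filter on low counts, all 4 among them. The lowest count of any of the 4 in any fish was 103, for LOC100136438. The defining red cell transcripts were abundant in every library: the 18 hemoglobin genes found by name took 1.38% of counts in ICJ2, the lowest, and 6.61% in FM4, the highest. The spleen marker LOC106606259, a tlx1-like homeobox gene, was present in every fish, with levels from 286 CPM (the fragment count scaled to library size) in the lowest FM fish to 464 CPM in the highest ACJ fish.

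LOC106606856 lies on chromosome 6 of assembly ICSASG_v2, at 23783006 to 23791308 on the minus strand, with 15 exons and 2245 exonic bases. LOC106606869 lies on the same chromosome at 24436723 to 24439629 on the plus strand, with 5 exons and 1808 exonic bases. Between them are 645414 bases and 10 genes. Their exon lengths were set against those of LOC100380859, another expressed band 3 gene, with 19 exons on chromosome 3. Exons 3 to 14 of LOC106606856 had exactly the lengths of exons 2 to 13 of LOC100380859, a run of 12 exons and 1812 bases. Exons 2 to 4 of LOC106606869 had the lengths of exons 16 to 18 of LOC100380859, a run of 3 exons and 586 bases. The pair on chromosome 6 shared no exon length with each other. LOC106606856 thus matched the front of the band 3 exon series and LOC106606869 its end, as the exon map shows. Of the 47018 genes with at least 3 exons, 6 besides LOC100380859 shared a run of 3 or more exon lengths with it and 3 shared a run of 4 or more. The chromosome 6 pair were among the 6, and LOC106606856 was among the 3. Exons 2 to 4 of LOC106606869 also had the lengths of exons 15 to 17 of LOC106579091, a gene named slc4a1b, so that run was not particular to LOC100380859. Whether the pair are separate genes or stretches of 1 gene was not tested, and the values below may not be independent for that reason. LOC106606869 matched no entry of the RefSeq table for the later assembly.

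**Figure D1:**
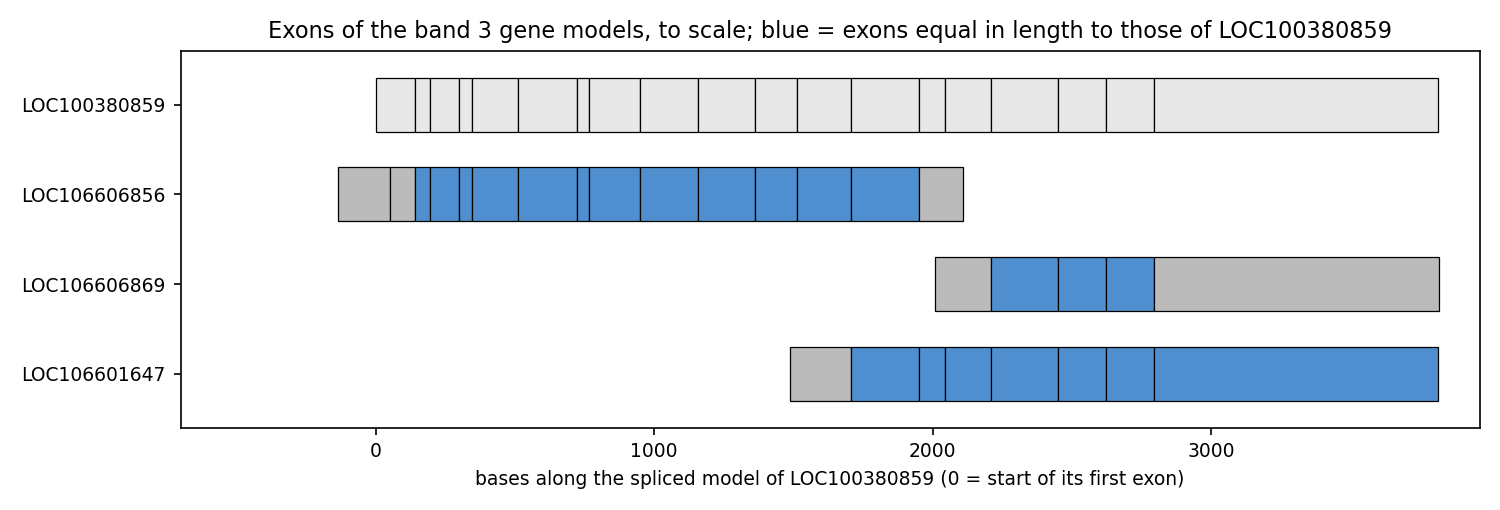
Exons of 4 band 3 gene models drawn to scale, with position in bases along the spliced model of LOC100380859 on the x axis and 1 row per gene. Blue exons equal in length those of LOC100380859 above them (12 for LOC106606856, 3 for LOC106606869, 7 for LOC106601647), and grey exons differ.

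LOC106571195, the Rh type A-like gene, lies on chromosome 15 at 23737687 to 23753393 on the plus strand, with 10 exons and 3768 exonic bases. LOC100136438, the RhAG-like gene, lies on chromosome 1 at 20732853 to 20737099 on the minus strand, with 11 exons and 1616 exonic bases. It overlaps LOC106579821 on the other strand, and fragments were counted by strand. Exons 2 to 9 of LOC106571195 had the lengths of exons 2 to 9 of a gene that the count tables call rhbg_1, on chromosome 6 at 46886184 to 46900820. That run of 8 exons compared with a longest run of 4 between LOC106571195 and the gene called rhbg. The exon series of LOC106571195 and LOC100136438 shared a longest run of 2.

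Per length, the band 3 genes were the most abundant of the 4. The mean over 16 fish was 158.8 CPM per kb of exon for LOC106606869, 112.1 for LOC106606856, 25.6 for LOC106571195 and 23.8 for LOC100136438. LOC106606869 stood above LOC106606856 in all 16 fish on this scale, by 1.25-fold to 1.60-fold. These models match different parts of the band 3 exon series, and fragments that map to several places were not counted. How far this sets the order per length was not tested. LOC106571195 stood above LOC100136438 in 13 of the 16 fish, with a per-length ratio from 0.799 to 1.28, so the order of the Rh genes was not the same in every fish. By mean CPM the genes ranked 383, 470, 1662 and 5431 of the 28930 tested.

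The first question was how the soybean meal challenge compared with the fishmeal control. Transcripts of all 4 genes were 2.23-fold to 2.77-fold higher in FM than in SBM spleens. None of the 4, however, passed edgeR's quasi-likelihood test after Benjamini-Hochberg adjustment over all genes. The study itself, with its own model, names all 4 in its lists of called genes. Those lists were pooled here over its diet comparisons, so the comparison behind each name is not given. LOC106606869 measured 235.2, 279.0, 588.7 and 619.5 CPM in FM1 to FM4 and 199.96, 146.2, 99.1 and 197.3 CPM in SBM1 to SBM4. Every FM fish was above every SBM fish, and FM3 and FM4 stood far above the other FM fish. The means were 431 ± 202 and 161 ± 47.9 CPM (SD, n = 4), a log2 fold change of 1.42 (SE 0.48, 95% interval 0.39 to 2.46, edgeR adjusted p = 0.189). In bulk spleen, fewer red cells and less of these transcripts per red cell cannot be told apart.

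The other band 3 gene gave nearly the same picture. LOC106606856 measured 216.5, 273.7, 564.4 and 497.9 CPM in FM1 to FM4 and 168.5, 116.6, 98.3 and 176.1 CPM in SBM1 to SBM4. The diets did not overlap, and FM3 and FM4 were again the highest of the 16 fish. The means were 388 ± 169 and 140 ± 38.3 CPM (SD, n = 4), with a log2 fold change of 1.47 (SE 0.46, 95% interval 0.48 to 2.46, edgeR adjusted p = 0.161).

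Of the Rh genes, LOC106571195 measured 91.8, 110.7, 178.0 and 197.7 CPM in FM1 to FM4 against 77.2, 51.2, 43.5 and 70.2 CPM in SBM1 to SBM4. These did not overlap either, and the log2 fold change was 1.25 (SE 0.39, 95% interval 0.40 to 2.11, edgeR adjusted p = 0.164). LOC100136438 measured 33.6, 41.0, 71.0 and 82.2 CPM in FM1 to FM4 against 25.8, 24.5, 16.3 and 35.003 CPM in SBM1 to SBM4. Here 1 SBM fish, SBM4, was above FM1, and the log2 fold change was 1.16 (SE 0.37, 95% interval 0.35 to 1.97, edgeR adjusted p = 0.171).

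**Figure D2:**
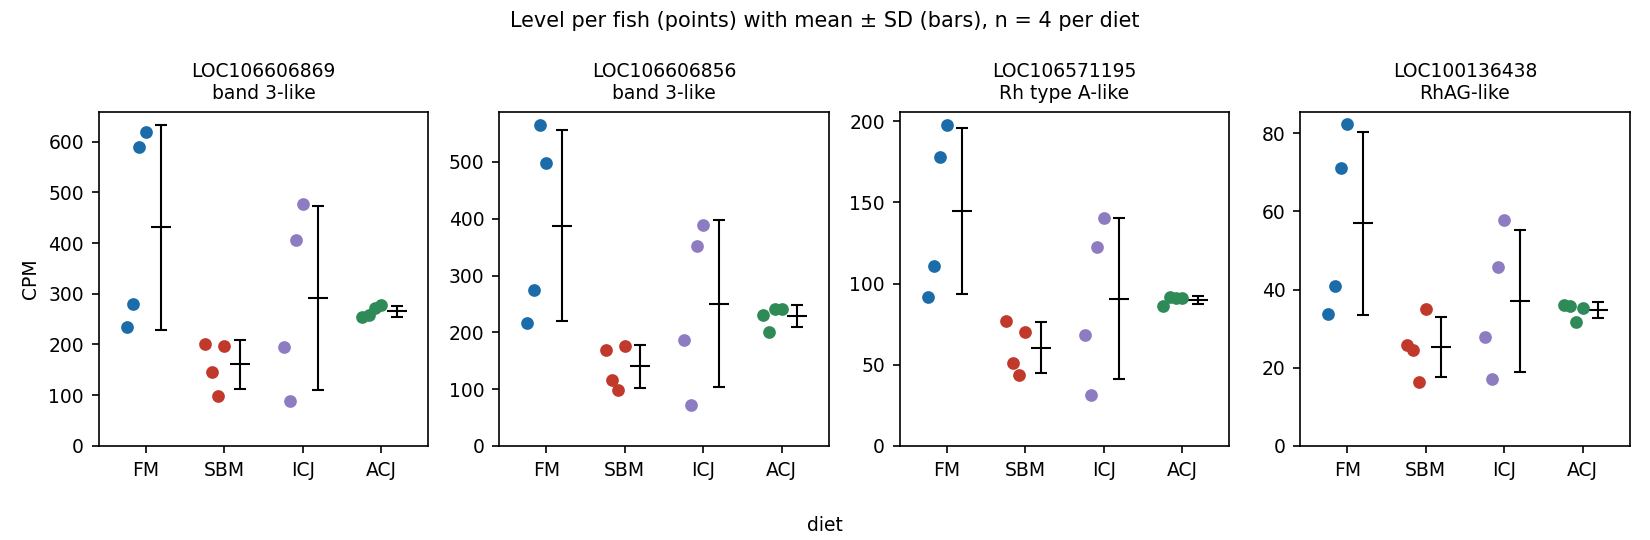
Level in CPM (y axis, linear from 0) of the 4 transporter genes by diet (x axis), with 1 point per fish and the mean ± SD beside them (n = 4 per diet). FM3 and FM4 are the highest fish and SBM fish lie low, ICJ fish spread widely (88.9 to 477.6 CPM for LOC106606869), and the 4 ACJ fish lie close together (254.8 to 276.9 CPM).

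Of all tested genes, 0.432% passed the adjusted quasi-likelihood test in FM|SBM, and 0 of the 4 transporter genes did. All 4 were higher in FM, as were 51% of tested genes, and all 4 had an unadjusted p below 0.05 (0.00701 to 0.0110) in that direction, which held for 7.5% of tested genes. DESeq2 called 2 of the 4 higher in FM, LOC106606856 (adjusted p = 0.0369) and LOC106571195 (adjusted p = 0.0454), beside 1.6% of the genes it tested. DESeq2 gave adjusted p-values of 0.0604 for LOC106606869 and 0.0575 for LOC100136438, close to the threshold on the other side. For 3 of the 4, every FM fish was above every SBM fish, as for 4.15% of tested genes. Because the 4 were chosen with earlier results of these fish known, the shares here and below give scale only and are no independent evidence. The exact two-sided permutation test gave p = 0.0286 for these 3, the smallest that 4 against 4 fish can give, and p = 0.0571 for LOC100136438. Any gene without overlap gets 0.0286 in this test, so that value only restates the lack of overlap. Leaving out each fish in turn kept the log2 fold changes between 0.92 and 1.66 and called none of the 4 with edgeR (adjusted p 0.0845 to 0.402).

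The next question was whether yeast in the soybean meal diet went with another level. In ACJ spleens the 4 genes were 1.36-fold to 1.65-fold above SBM. LOC106606869 measured 254.8, 257.3, 271.6 and 276.9 CPM in ACJ1 to ACJ4, and LOC106606856 measured 230.5, 200.1, 240.8 and 241.9 CPM. LOC106571195 measured 86.4, 91.7, 91.0 and 90.8 CPM, and LOC100136438 measured 36.1, 35.8, 31.6 and 35.2 CPM. For the first 3 of these, every ACJ fish was above every SBM fish, as for 2.67% of tested genes. The exact permutation test gave p = 0.0286, which restates the lack of overlap. For LOC100136438, ACJ3 was below SBM4, with p = 0.0571 in the exact permutation test.

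These ACJ|SBM differences were small beside the spread that the 16-fish model shares among diets. The log2 fold changes were 0.72 (SE 0.47), 0.71 (SE 0.45), 0.57 (SE 0.39) and 0.44 (SE 0.37) in the order above, and edgeR's adjusted p was 0.783 to 0.837. In this comparison 0 of the 4 genes and 0% of all tested genes passed the adjusted quasi-likelihood test, and none of the 4 had an unadjusted p below 0.05 (0.141 to 0.259), which 6.9% of all tested genes had. DESeq2 called none of the 4 (adjusted p 0.781 to 0.876), and 0.0569% of the genes it tested. The 95% intervals ran from -0.37 at the lowest to 1.75 at the highest, so equal levels and levels as far apart as FM and SBM both lie inside them.

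ICJ fish differed widely among themselves. LOC106606869 measured 194.9, 88.9, 405.3 and 477.6 CPM in ICJ1 to ICJ4, and LOC106606856 measured 187.1, 72.9, 351.4 and 388.7 CPM. LOC106571195 measured 68.6, 31.7, 122.6 and 140.1 CPM, and LOC100136438 measured 27.8, 17.0, 45.9 and 57.7 CPM. For all 4 genes ICJ2 was the lowest ICJ fish and ICJ4 the highest. ICJ2 was below every SBM fish for 3 of the genes, while ICJ3 and ICJ4 were above every ACJ fish for all 4.

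Accordingly ICJ|SBM gave log2 fold changes of 0.86 (SE 0.47), 0.84 (SE 0.45), 0.59 (SE 0.39) and 0.55 (SE 0.37) with overlap in every gene (3.04% of tested genes showed none). edgeR's adjusted p was 0.967 for each, 0 of the 4 genes and 0% of all tested genes were called, and the 4 unadjusted p-values were 0.0865 to 0.166 (5% of tested genes had one below 0.05). DESeq2 called none of the 4 (adjusted p = 1), and 0.00847% of the genes it tested. The 95% intervals together ran from -0.26 to 1.89. Without ICJ2 the log2 fold changes were 0.78 to 1.16 and without ICJ4 they were 0.25 to 0.54.

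Against the fishmeal control both yeast diets stood lower. ACJ|FM gave log2 fold changes of -0.70 (SE 0.47), -0.77 (SE 0.45), -0.68 (SE 0.39) and -0.72 (SE 0.37), with edgeR adjusted p of 0.387 to 0.522, and 0 of the 4 genes were called beside 0.235% of all tested genes. Their unadjusted p-values were 0.0738 to 0.161 (14.9% of tested genes had one below 0.05), and DESeq2 called none (adjusted p 0.359 to 0.510, with 1.89% of its tested genes called). Only LOC106571195 showed no overlap between these diets, every ACJ fish being below every FM fish by a narrow margin (91.7 CPM in ACJ2 and 91.8 CPM in FM1). The exact permutation test gave p = 0.0286, which restates the lack of overlap. A lack of overlap in either direction held for 7.05% of tested genes. ICJ|FM gave -0.56 (SE 0.47), -0.63 (SE 0.45), -0.67 (SE 0.39) and -0.61 (SE 0.36), with edgeR adjusted p of 0.635 to 0.755 and 0 of the 4 called beside 0.0104% of all tested genes. The diets overlapped in all 4 genes (4.36% of tested genes showed no overlap), unadjusted p-values were 0.109 to 0.252 (9.26% of tested genes had one below 0.05), and DESeq2 called none (adjusted p 0.536 to 0.717, with 0.63% of its tested genes called). ACJ|FM, ICJ|FM and FM|SBM share the 4 FM fish, and FM3 and FM4 raise the FM mean in each.

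**Figure D3:**
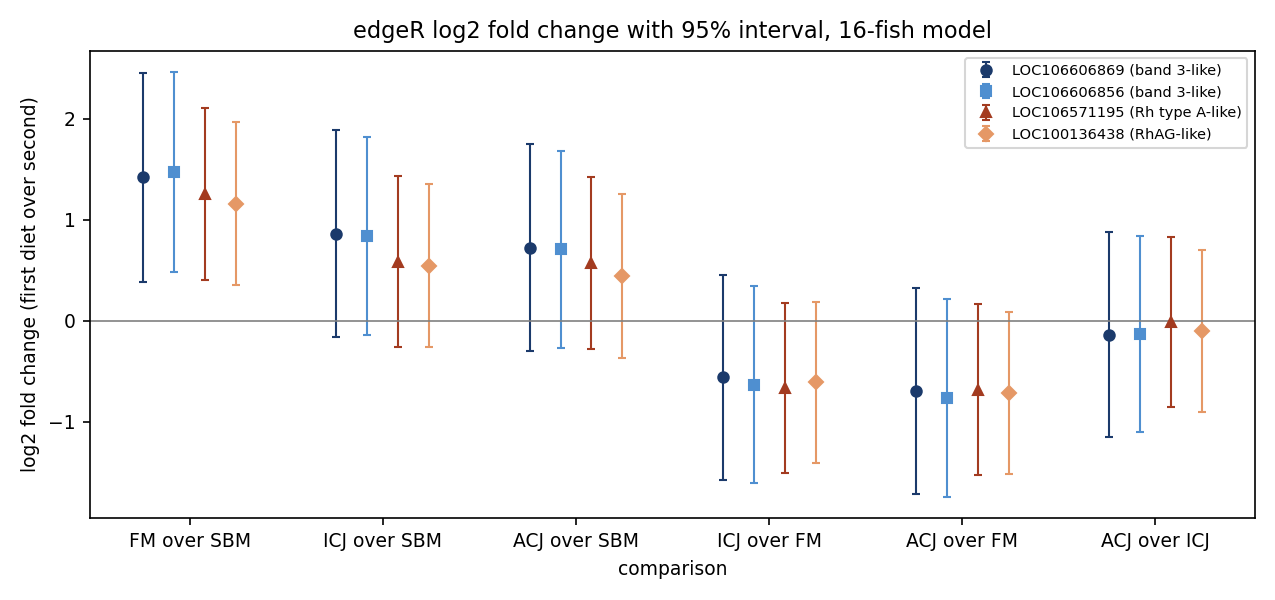
Log2 fold change (y axis) of the 4 genes in the 6 diet comparisons (x axis), from edgeR's 16-fish model, with 95% intervals. Intervals leave out 0 in FM over SBM only, before any adjustment for the number of genes tested, and those of ACJ over ICJ centre near 0.

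Between the yeast diets the means were close and the spreads were not. ACJ|ICJ log2 fold changes were -0.14, -0.13, -0.02 and -0.10 (SE 0.37 to 0.47, edgeR adjusted p 0.987 to 0.999), and the intervals together ran from -1.15 to 0.88. In ACJ|ICJ 0 of the 4 genes and 0% of all tested genes were called by edgeR, the unadjusted p-values were 0.772 to 0.970 (5.67% of tested genes had one below 0.05), and DESeq2 called none of the 4 (adjusted p = 0.9995 for each) and 0.0179% of its tested genes. Over the 4 ACJ fish the coefficient of variation was 4.07%, 8.55%, 2.66% and 6.002%, and over the 4 ICJ fish it was 62.0%, 58.8%, 54.9% and 49.0%. The highest ICJ fish held 3.39 to 5.37 times the lowest, and the highest ACJ fish 1.06 to 1.21 times the lowest.

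This gap in spread was set beside the 5431 tested genes at or above the mean level of LOC100136438. Their median SD of log2 CPM was 0.12 both in ICJ and in ACJ fish. The SD of LOC106571195 was 0.97 in ICJ and 0.04 in ACJ fish, a ratio of 25.0, and 0.0368% of the 5431 genes had a larger ratio. For LOC106606869 the ratio was 18.9 (0.110% of genes larger), for LOC106606856 8.65 (0.921%) and for LOC100136438 8.79 (0.884%). In FM and SBM fish the 4 genes were also among the more variable, above 94.9% to 97.8% of the 5431 genes. Other red cell genes shared the gap, so it was not particular to the 4. The 18 hemoglobin genes summed to 37609 ± 19995 CPM in ICJ and 36808.5 ± 1931 CPM in ACJ fish. The erythroid factor gata1 had 51.5 ± 21.6 and 51.2 ± 0.58 CPM (SD, n = 4), but gfi1b lay the other way (52.1 ± 8.67 and 51.2 ± 22.6 CPM). The 4 genes also followed each other from fish to fish, so their shares are not separate results. Spreads over 4 fish are imprecise, and the difference in spread was chosen after its values were seen and has no test here.

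The 4 genes followed each other from fish to fish. Over the 16 fish Pearson's r of log2 CPM was 0.990 between the band 3 genes and 0.965 between the Rh genes, and 0.963 to 0.990 over the 6 pairs. Spearman's rho was 0.915 to 0.976. Each r had p = 1e-05 in a permutation test of 100000 draws, the smallest it can give, with Benjamini-Hochberg values of 1e-05 over the 10 relations computed, and each rho had a p of 1e-05 or 2e-05. The draws moved fish freely across diets, so a diet difference common to both genes also lowers these p-values. Without the 2 fish farthest from the median r stayed at 0.952 to 0.986, and over deviations from diet means it was 0.941 to 0.990. Within FM, SBM and ICJ fish r was 0.79 to 0.9995, and within ACJ fish, which hardly differed, it ran from -0.54 to 0.68, each from 4 fish. Both genes of a pair were read from the same 16 libraries.

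Ratios were therefore much steadier than levels. The log2 ratio of LOC106606869 to LOC106606856 ran from 0.01 to 0.36 over 16 fish (SD 0.11), while each of the band 3 genes varied with an SD of 0.80. The log2 ratio of LOC106571195 to LOC100136438 ran from 0.88 to 1.56 (SD 0.18) beside SDs of 0.69 and 0.63. In FM|SBM the means of these ratios differed by -0.06 (p = 0.571) and 0.11 (p = 0.429, exact permutation tests, n = 4 per diet). Of 36 tests of 6 ratios in 6 comparisons none passed Benjamini-Hochberg adjustment, the smallest adjusted value being 0.514.

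Hemoglobin moved with the transporters. The summed hemoglobin genes measured 34259 to 70209 CPM in FM fish, 14563 to 25945 in SBM, 14030 to 61252 in ICJ and 34486 to 38678 in ACJ. FM3, FM4, ICJ3 and ICJ4 were the 4 highest and ICJ2 and SBM3 the 2 lowest, as for the transporters. Of the 18 summed genes 6 were found by symbol or synonym. The others were named only in the study's lists of called genes, chosen on these fish. The diet ranges of the sum are therefore no independent evidence. Of the 5 tested genes found by symbol or synonym, 1 had every FM fish above every SBM fish. Each of the 4 genes followed this sum with r from 0.958 to 0.981 and rho from 0.926 to 0.982 (permutation p = 1e-05, n = 16), from 0.934 to 0.968 without the 2 farthest fish, and from 0.949 to 0.974 over deviations from diet means. Within the 4 ACJ fish alone the relation did not hold across the 4 genes, with r of 0.49, -0.24, 0.81 and 0.14 in the order LOC106606869, LOC106606856, LOC106571195 and LOC100136438. Relative to hemoglobin the transporters differed little between FM and SBM, with mean log2 ratios apart by 0.21, 0.27, 0.08 and -0.03 (exact permutation p 0.171 to 0.886). Of the 36 tests, that of LOC106571195 over hemoglobin in ACJ|FM had the smallest p, with a difference of -0.23 and no overlap (exact permutation p = 0.0286, adjusted 0.514 over the 36).

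**Figure D4:**
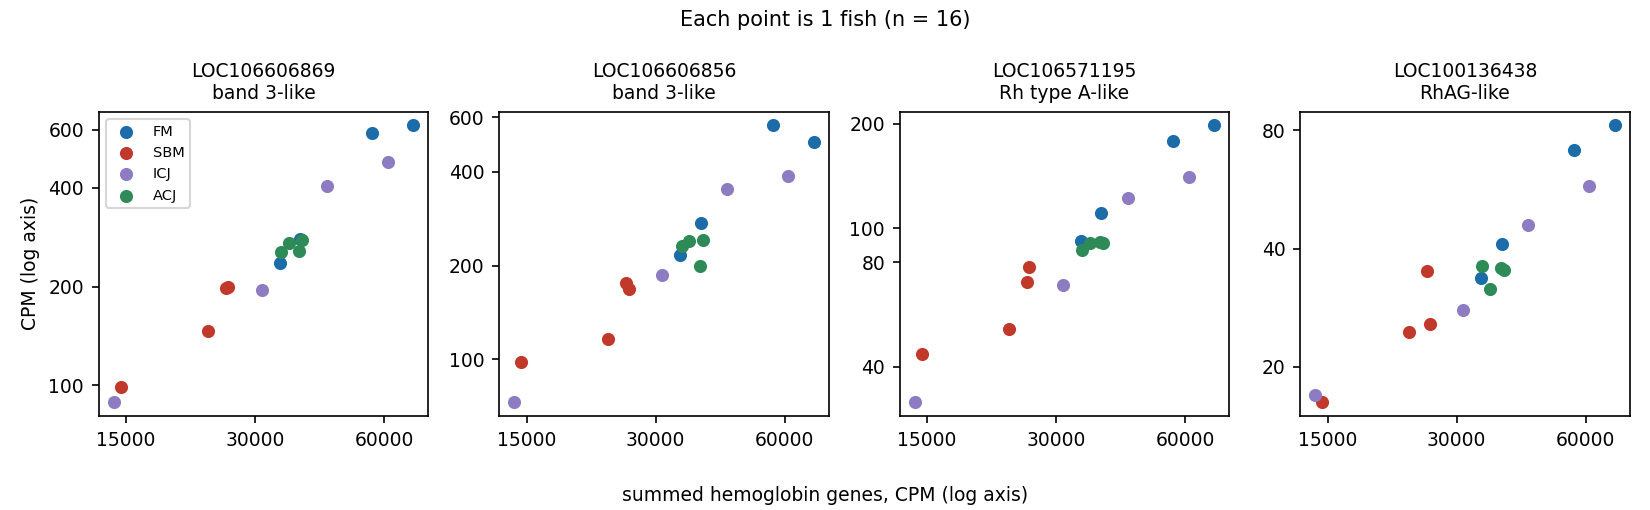
Level of each of the 4 genes in CPM (y axis, log) against the summed hemoglobin genes in CPM (x axis, log), 1 point per fish coloured by diet (n = 16). Fish of all diets lie along 1 rising band, with SBM3 and ICJ2 at its foot, the ACJ fish bunched in the middle and FM3 and FM4 near its top.

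Other members of both families were looked up by symbol and by name. The SLC4 list, which holds band 3 and the related bicarbonate carriers, found 12 genes, of which 6 were tested. In FM|SBM 4 of these were higher in FM and 2 lower, with a median log2 fold change of 1.42 beside 0.01 over all tested genes, and edgeR called none. DESeq2 called 3 higher, beside 1.6% of the genes it tested. In 4 genes every FM fish was above every SBM fish and in 1 every FM fish was below, while 8.18% of tested genes showed no overlap. These counts include the band 3 pair above. Without that pair 4 genes were tested, of which 2 were higher and 2 lower in FM, with a median of 0.37, and DESeq2 called 2 higher. Names for the 6 tested genes came from the study's own lists of called genes, chosen on these fish, so their direction is no independent evidence.

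Among them LOC100380859, the band 3 gene on chromosome 3 (77053045 to 77060883), averaged 168 CPM and had a log2 fold change of 1.48 (SE 0.44, edgeR adjusted p = 0.152) in FM|SBM. LOC106601647, a shorter band 3-like gene of 8 exons on the same chromosome, averaged 55.3 CPM and had 1.42 (SE 0.46, edgeR adjusted p = 0.173). Its exons 2 to 8 had the lengths of exons 13 to 19 of LOC100380859, so it too covered only the end of the series. The others lay the other way. LOC106597086, anion exchange protein 2-like, the form known in mammals from many tissues other than red cells, had -0.70 (SE 0.23, edgeR adjusted p = 0.165). LOC106604467, sodium bicarbonate transporter-like protein 11, had -0.69 (SE 0.19, edgeR adjusted p = 0.111). The 6 untested SLC4 genes, including the one named slc4a1b, had at most 11 counts in any fish.

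The Rh list found 5 genes. The genes called rhbg and rhcg, known in fish from the gill, had 0 counts in all 16 fish, which allows up to 0.637 CPM in the shallowest library. The gene called rhbg_1, by contrast, averaged 237 CPM, 92.6 per kb, a per-length level between those of the band 3 pair and the Rh pair above. Its mean was 370 ± 156 CPM in FM, 139 ± 37.9 in SBM, 229 ± 133 in ICJ and 207 ± 17.1 in ACJ (SD, n = 4). Every FM fish and every ACJ fish was above every SBM fish, with a log2 fold change of 1.41 (SE 0.43, edgeR adjusted p = 0.153) in FM|SBM and 0.57 (SE 0.42, edgeR adjusted p = 0.809) in ACJ|SBM. DESeq2 gave an adjusted p of 0.0321 for rhbg_1 in FM|SBM. The matching of suffixed symbols such as this one was added after its values were seen.

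Of the listed partners of band 3 in the membrane skeleton, more were higher than lower in FM as well. Of 13 tested skeleton genes 9 were higher and 4 lower in FM than SBM (median 1.06), edgeR called none, and DESeq2 called 6 higher, beside 51% of all tested genes higher in FM and 1.6% called higher by DESeq2. The 7 tested genes found by symbol alone were nearly even, with 4 higher and 3 lower in FM. The other skeleton genes were found only by their names in the study's lists of called genes, chosen on these fish, so their direction is no independent evidence. LOC106602627, erythrocytic spectrin beta chain-like, had a log2 fold change of 1.52 (SE 0.45, edgeR adjusted p = 0.146), whereas LOC106571359, a protein 4.1-like gene, had -0.35 (SE 0.13, edgeR adjusted p = 0.209). Among the 3 tested gas and ion partners, cahz, a carbonic anhydrase that interconverts carbon dioxide and bicarbonate, averaged 966 CPM and had 1.33 (SE 0.43, edgeR adjusted p = 0.180). The water channel aqp1 averaged 555 CPM and had -0.43 (SE 0.42, edgeR adjusted p = 0.703).

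Genes that build the red cell were higher in FM in most cases. Of 16 tested genes of heme synthesis and iron uptake 15 were higher and 1 lower (median 0.79), with 0 called by edgeR, 11 higher at an unadjusted p below 0.05 and 5 by DESeq2. Over all tested genes the shares were 0.432% called by edgeR, 7.5% higher at an unadjusted p below 0.05 and 1.6% higher by DESeq2. They included alas2, the first enzyme of heme synthesis in red cells (1.06, SE 0.36, edgeR adjusted p = 0.193), and LOC106597167, a transferrin receptor (1.54, SE 0.44, edgeR adjusted p = 0.136). Of 16 tested erythroid transcription factor and receptor genes 15 were higher and 1 lower (median 0.88), and 1 rose by edgeR's test, beside 0.111% of all tested genes. It was LOC106590038, a homolog of TAL1, a transcription factor of early blood formation. Its log2 fold change was 0.81 (SE 0.14, edgeR adjusted p = 0.0285), from 61.3 ± 10.3 CPM in FM and 34.9 ± 2.66 CPM in SBM fish (SD, n = 4). The most abundant of this list, LOC106590324, also TAL1-like, had 0.61 (SE 0.16, edgeR adjusted p = 0.110), and LOC106601362, an erythropoietin receptor-like gene, 1.39 (SE 0.62, edgeR adjusted p = 0.322). These genes, the called one included, were found only by name in the study's lists of called genes, so that call is no independent evidence. Of the 7 erythroid genes found by symbol alone edgeR called 0. In the whole list 15 genes were higher at an unadjusted p below 0.05 and 9 by DESeq2, beside 7.5% and 1.6% of all tested genes. All 17 tested hemoglobin genes were higher in FM (median 1.19), with 0 called by edgeR, 15 at an unadjusted p below 0.05 and 10 by DESeq2, against the same shares of 0.432%, 7.5% and 1.6% over all tested genes. The most abundant, the beta globin genes LOC106607372 and LOC100136576, had 1.19 (SE 0.37) and 1.13 (SE 0.38), with edgeR adjusted p of 0.165 and 0.192. Many of these names again came only from the study's called genes. By symbol alone 8 of the 14 skeleton genes found, 15 of 16 heme genes, 7 of 16 erythroid factor genes and 6 of 18 hemoglobin genes were found, with medians of 0.75, 0.70, 0.77 and 0.95 among those tested.

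Markers of other cells were measured beside these. The 4 thrombocyte markers summed to 455 to 748 CPM in FM and 274 to 408 CPM in SBM fish, and the 3 B cell markers to 192 to 287 and 148 to 191 CPM, neither with overlap. The B cell sums nearly met (192.2 CPM in the lowest FM and 190.9 CPM in the highest SBM fish). Taken singly, 4 of the 4 thrombocyte genes and 0 of the 3 B cell genes separated the diets. By symbol alone 2 thrombocyte markers and 1 B cell marker were found, with median FM|SBM log2 fold changes of 0.81 and 0.30. The other names in both lists came only from the study's called genes. T cell markers (6 genes) summed to 357 to 464 CPM in FM and 338 to 434 CPM in SBM, macrophage markers (3 genes) to 926 to 1332 and 971 to 1646 CPM, and granulocyte markers (2 genes) to 175 to 278 and 208 to 254 CPM, all with overlap. Taken singly, 1 of the 2 tested macrophage genes, colony-stimulating factor 1 receptor-like, was lower in every FM than every SBM fish. It averaged 451 ± 53.8 CPM in FM and 563 ± 20.6 CPM in SBM (SD, n = 4), with a log2 fold change of -0.32 (SE 0.10, edgeR adjusted p = 0.150). Its name too came only from the study's called genes. Of the T cell and granulocyte genes 0 separated the diets. The tlx1-like spleen marker was lower in every FM fish (286 to 361 CPM) than in every SBM fish (390 to 428 CPM). A lack of overlap in either direction held for 8.18% of tested genes in FM|SBM. This marker was found only by its name in the study's lists of called genes, chosen on these fish, so its separation is no independent evidence. ACJ fish, above SBM for 3 of the transporters, measured 421 to 570 CPM for the thrombocyte markers, above every SBM fish, and 146 to 161 CPM for the B cell markers. Taken singly, 2 of the 4 thrombocyte genes had every ACJ fish above every SBM fish, as had 2.67% of tested genes. The part of cell makeup in the transporter values was not tested.

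**Figure D5:**
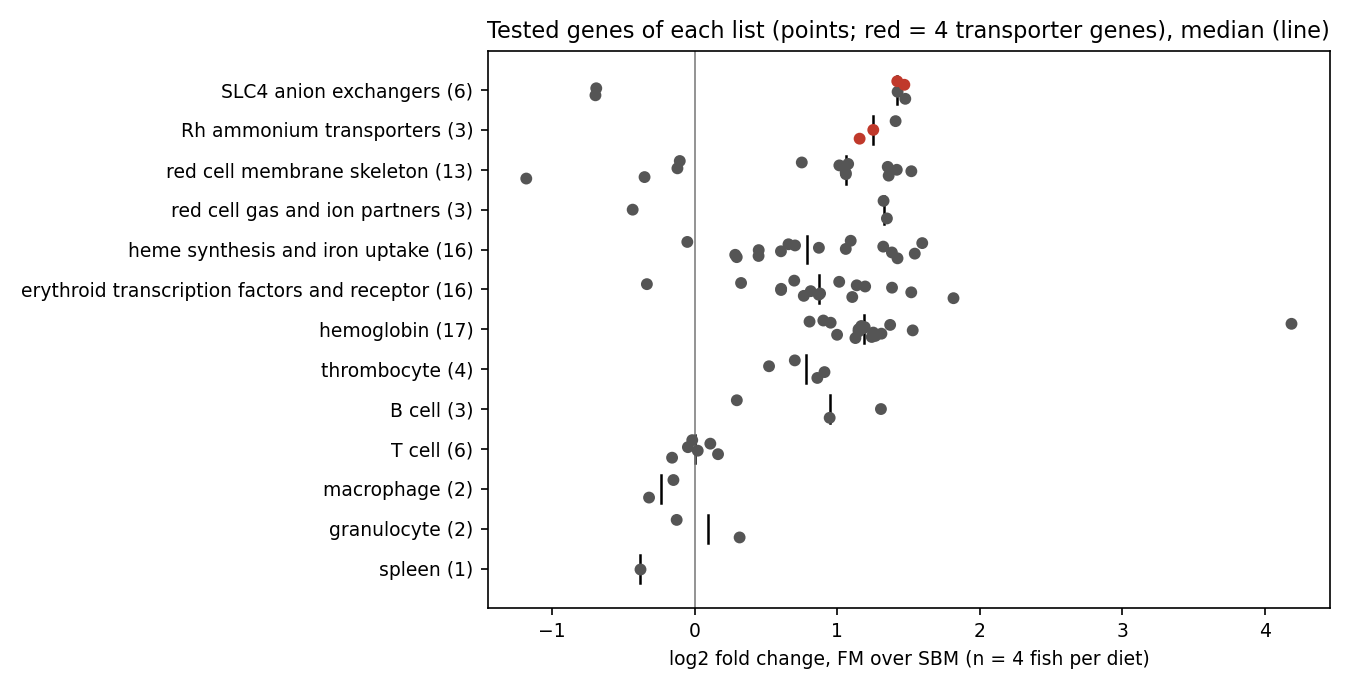
Log2 fold change of FM over SBM (x axis) for the tested genes of each list (rows, with the number of genes), 1 point per gene, red for the 4 transporter genes, and a line at the median. Medians of the SLC4, Rh and red cell lists lie between 0.79 and 1.42, those of thrombocyte and B cell markers at 0.78 and 0.95, and those of T cell, macrophage and granulocyte markers between -0.23 and 0.10. Without the red points the SLC4 median is 0.37 (4 genes) and the Rh value 1.41 (1 gene).

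Finally, the genes whose levels were most like each transporter over the 16 fish were listed, 5 per gene and again 5 over deviations from diet means, giving 8 lists. The carbonic anhydrase cahz stood in 7 of the 8 and was the closest to LOC106606869 (r = 0.995). The band 3 gene LOC100380859 was the closest to LOC106606856 (r = 0.993). The nucleoside transporter LOC100196543 was the closest to LOC106571195 (r = 0.987), and LOC106582882, GATA-binding factor 2-like, to LOC100136438 (r = 0.981). The gene called rhbg_1 stood in 5 lists, LOC106575454, WW domain-binding protein 4-like, in 4, and the hemoglobin alpha-like gene LOC106607373 and LOC100196543 in 3 each. LOC106585259, ankyrin-1-like, and nlk stood in 2 each. From 184 to 221 genes, 0.636% to 0.764% of the other 28926 tested, had r above 0.9 with a given transporter, while 0 or 1 had r below -0.9. The 16 fish are shared by all these values, and they describe likeness only.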

How the data were processed

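Spleen RNA of 16 fish was sequenced by the authors as stranded paired-end libraries on 1 lane number (5, per the file headers), trimmed, aligned with HISAT2 2.1.0 to ICSASG_v2 and counted per gene with featureCounts (1.4.6-p1 in the submitters' processing notes, 1.5.1 per the file headers). The deposited values are raw counts of fragments per gene. Fragments that map to several places or genes were not counted, so near-identical copies, including the band 3 genes, are uncertain. Library numbers in the headers differ from the labels for 13 of 16 fish, but the diet is the same for all 16. Each fish took its group from its title.

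Counts were tested with edgeR 4.0.16 (R 4.3.3; filterByExpr, TMM, robust quasi-likelihood, diet as the only term, all 16 fish, Benjamini-Hochberg over 28930 genes, threshold 0.05). CPM used TMM library sizes. The 95% intervals used a t distribution with 12 degrees of freedom. Exact permutation tests of 4 against 4 fish on log2(CPM + 1), and of log2(CPM + 0.5) ratios, were two-sided, and 0.0286 is the smallest p they allow. Correlations used 100000 draws that moved fish freely across diets. Python 3 scripts used scipy for these. Alternatives were DESeq2 1.42.0, RLE scaling, no filter, the edgeR likelihood ratio test, the replicate number as a block, the 8 fish compared alone, hemoglobin genes removed, and each fish left out in turn. Scripts were tested on simulated data. No pair of fish of 1 diet agreed within sampling noise (lowest chi-square per degree of freedom 4.81 over 24 pairs). Fish are separate animals but shared tanks, so p-values measure the spread between fish only.

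The 4 genes and the lists were chosen with earlier results of these data known. Genes are named if they are 1 of the 4, among the 5 most alike, an SLC4 or Rh family gene that was tested, 1 of the 2 most abundant tested genes in a red cell list, or called in a list. Symbols came from the tables, from the RefSeq table (39388 features matched) and, for 961 features, from the study's lists of called genes. Suffixes such as _1 were dropped before matching. Protein and gene sequences were not used here.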

Additional observations from a re-analysis of the deposited data

Results flagged for a closer look

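In 40 sets of 4 fish (the 4 levels and 6 ratios in each diet) the gap of the most extreme fish to its neighbour was compared with the range of the set. Chance gives about 1 such flag in 20 sets, and 2 were found. LOC106571195 in ACJ fish had a gap of 0.846 of the range, ACJ1 (86.4 CPM) lying below the other fish (90.8 to 91.7 CPM), in the set with the narrowest spread of all. The log2 ratio of LOC106571195 to summed hemoglobin in ICJ fish had a gap of 0.858 of its range.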

How the results depend on the processing

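The number of the 4 genes called was 0 in every comparison and setting run except DESeq2 in FM|SBM, where it was 2. Over all genes FM|SBM calls numbered 125 with edgeR, 720 with DESeq2, 313 with the likelihood ratio test, 38 with the 8 fish alone, and 5 to 670 with 1 fish left out (670 without FM1). Replicate numbers of the labels did not pair the fish (mean correlation of same-numbered fish -0.13 to 0.06 over the 6 comparisons). Library numbers in the headers differ from the labels for 13 of 16 fish, and tanks are not named. Neither this check nor the replicate block can therefore show whether fish shared a tank or another unit. With the replicate block FM|SBM log2 fold changes were 1.29 for LOC106606869, 1.38 for LOC106606856, 1.19 for LOC106571195 and 1.11 for LOC100136438, with 0 called, and the block changed no other call. The direction of ACJ|ICJ turned in some settings, from -0.14, -0.13, -0.02 and -0.10 (genes in the same order) to 0.057, 0.047, 0.13 and 0.013 with the replicate block and to 0.14, 0.13, 0.20 and 0.044 as differences of mean log2(CPM + 1). With 1 fish left out it ran from -0.44 to 0.21, -0.44 to 0.16, -0.30 to 0.27 and -0.34 to 0.19. The cause was not tested. All other log2 fold changes kept their direction, and all 360 values of ratios under other settings stayed on their side of the threshold. With 4 fish per diet, an SE of 0.37 to 0.48 on the log2 scale left FM|SBM differences of 2.23-fold to 2.77-fold short of the adjusted threshold. The lowest count of any of the 4 genes in a fish was 103, and the part of depth in these SEs was not tested.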
